A study of Mus musculus with 24 samples.

Results

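Themis is a single gene, and it was followed here through the livers of 24 mice, 6 normal controls and 18 mice with modelled steatohepatitis, a fatty and inflamed state of the organ. It is 1 of the 78298 gene IDs in the count table, and it was chosen by its difference between model and control livers, so its own levels in those groups are described without a test. It is set beside Cd3e, Trac and Lck, genes of the T-cell receptor and of the kinase that starts its signal. Each library came from 1 mouse and from whole liver, and the labels treat all model mice as 1 group. The labels do not state strain, sex, age, diet or duration, so how the disease was induced is unknown here.

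Themis encodes an adaptor protein of the T-cell lineage, best known from the thymus, where developing T cells need it to pass positive selection. The protein carries CABIT domains, binds the adaptor GRB2, and through it works with the phosphatase SHP-1 at the T-cell receptor. Its relative THEMIS2 serves B cells and macrophages, and THEMIS3 is found in the intestine. Whole liver is mostly hepatocyte RNA with a small share from resident and infiltrating lymphocytes, and in such bulk tissue fewer cells of a type and less RNA per cell cannot be told apart.

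The deposited table places Themis (ENSMUSG00000049109) on the plus strand of chromosome 10, chr10:28544356-28759814 in GRCm39, with 10 separate exon blocks that add up to 11.682 kb. That length is the union of all annotated exons, so a level per kb can understate a shorter transcript. The promoter window is shown because the gene went from 1 to 6 counts per control to at least 242 per model mouse. It is the 250 bases before the more upstream of 2 RefSeq starts, given in GRCm38.p6 as chr10:28668110-28668359 on the plus strand and credited to RefSeq. Capitals mark matches to the E-box letters CANNTG and the HNF4 half-site letters CAAAG on either strand.

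Themis promoter: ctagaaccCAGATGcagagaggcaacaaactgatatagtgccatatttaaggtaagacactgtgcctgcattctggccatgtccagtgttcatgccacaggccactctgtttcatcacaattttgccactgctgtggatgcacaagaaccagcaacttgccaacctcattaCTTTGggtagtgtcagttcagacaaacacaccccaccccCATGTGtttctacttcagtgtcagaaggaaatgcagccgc

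The window held 2 E-box matches and 1 HNF4 half-site match, letters found in 66.2% and 48.6% of 32851 RefSeq windows of the same length. Of the other motifs searched on both strands, none of the 6 had a match in these bases. They were the RUNX letters TGTGGT, present in 14.0% of all windows, and the ETS letters GGAAG, present in 64.1%. The AP-1 letters TGANTCA are present in 6.75% of windows and the C/EBP letters TTGCNNAA in 9.56%. The GATA letters AGATAA are present in 9.99% and the TATA box letters TATAAA in 12.4%. The 8 motifs were chosen after the data were seen. The Themis window had 1 CG pair against a median of 6 and a GC content of 48% against a median of 52.4%. The window of the other RefSeq start was not described here, and which start these livers use was not tested. Binding and methylation were not measured.

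Themis was almost silent in control liver and clearly present in every model liver. The 6 controls had 2, 3, 3, 1, 1 and 6 raw counts of Themis in libraries of 31.6 M to 49.5 M counts. In counts-per-million units (CPM, on TMM-scaled library totals) these were 0.059, 0.074, 0.096, 0.035, 0.031 and 0.203 from control 1 to control 6. A level of 3 counts, the limit that a count of 0 would allow, is 0.0606 to 0.0949 CPM in the control libraries, by totals without TMM scaling. Of the 6 controls, 5 had 3 counts or fewer. The 18 model mice had 242 to 1700 counts, or 6.72 CPM at the lowest, 23.5 at the median and 31.6 at the highest. The groups were far apart, since the lowest model mouse stood 33.2 times above the highest control.

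Group means were 0.0832 ± 0.0634 CPM in controls (SD, n = 6) and 23.6 ± 6.09 CPM in model mice (SD, n = 18). The edgeR estimate was a log2 fold change of 8.12 (SE 0.376), a 278-fold difference. Pooled counts, 16 in controls against 18717 in model mice, gave a ratio by library totals of 370 with an exact 95% interval from 228 to 647, which covers counting error only. By size, this fold was the 9th highest of 17456 genes tested. Adding an index of clock genes to the fit gave 144-fold. That index, day-peak minus night-peak clock genes in log2 CPM, ran from -1.09 to 1.17 in controls 1 to 5, was 4.02 in control 6 and lay between 2.78 and 3.95 in model mice. Control 6, just above the model range of the index, had 6 Themis counts. Apart from control 6 the index separates the groups. Index and group can therefore hardly be told apart, in this fit and in all later calls with the index.

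**Figure D1:**
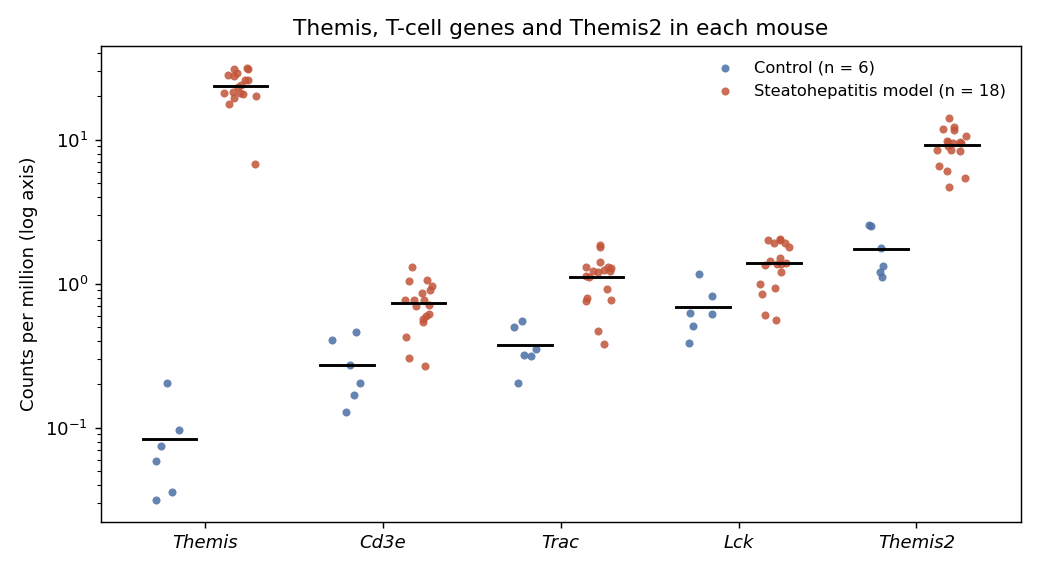
Each point is 1 mouse, with CPM on a log axis for Themis, 3 T-cell genes and Themis2 in 6 control and 18 model livers, and black lines mark group means. Themis lies between 0.031 and 0.203 CPM in controls and between 6.72 and 31.6 CPM in model mice, while the groups of Cd3e, Trac and Lck overlap.

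Among model mice Themis was even, with the exception of model 10. Model 10 had 6.72 CPM and the next mouse, model 2, had 17.5 CPM. The other 17 mice averaged 24.6 ± 4.52 CPM (SD), and their highest value was 1.80 times their lowest. Model 10 was also the lowest of the 18 mice in its macrophage, matrix and T-cell receptor scores (mean log2 CPM over a list), and the second highest in its hepatocyte score. The part of these cell types in its low Themis level was not tested.

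Themis had the smallest coefficient of variation among the genes with the largest changes. Under a rule set after values were seen (log2 fold change of at least 5, at least 5 CPM in model mice and a gene symbol), 17 genes were compared by their coefficient of variation among model mice. Themis had the lowest, 25.8%, and 18.4% without model 10. Ntrk2, a neurotrophin receptor gene, followed at 31.5% and Cyp2a22 at 33.9%. The order depends on the measure. Cyp2a22 was below Themis in SD of log2 CPM (0.483 against 0.505) and in highest over lowest mouse (3.24 against 4.71). Without model 10 Themis had the smaller of these 2 SDs, 0.266 against 0.479. Mmp12, a macrophage protease gene, was at 43.5%, Cidea, a lipid droplet gene, at 49.7%, Gpnmb, a membrane protein gene of lipid-laden macrophages, at 58.7% and Cyp2b9, a cytochrome P450 gene, at 66.3%. These are descriptions of genes picked by their fold, with no test of the difference in spread.

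**Figure D2:**
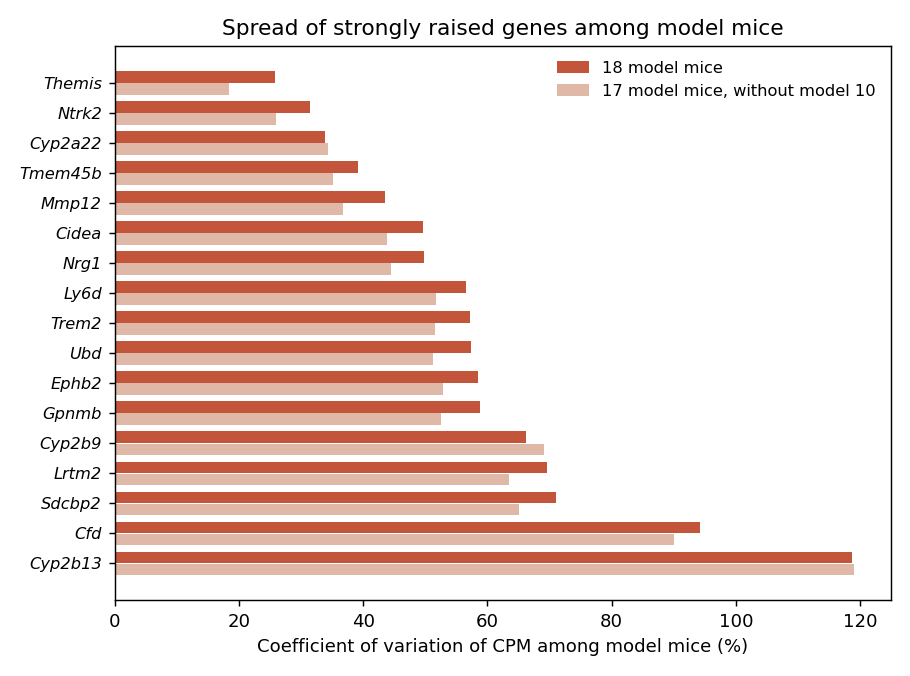
Bars give the coefficient of variation of CPM among model mice, in percent, for the 17 genes with a log2 fold change of at least 5 and at least 5 CPM, in dark for 18 mice and in light for 17 mice without model 10. Themis has the shortest bar in both, 25.8% and 18.4%.

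T-cell receptor genes were higher in model livers, by far smaller factors than Themis. Of the 8 complex genes, 7 passed the expression filter and all 7 were called higher (adjusted p below 0.05 in the quasi-likelihood test of edgeR), beside 31.2% of all genes tested. Their log2 fold changes ran from 1.08 to 1.71, with a median of 1.44 against 0.01 over all genes tested. The count of 7 was the same without control 6 and without model 10.

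Cd3e, the CD3 epsilon chain that carries the signal of the receptor, had 0.206, 0.273, 0.129, 0.461, 0.409 and 0.169 CPM in controls 1 to 6. Its model values were 0.269 at the lowest, 0.737 at the median and 1.30 at the highest. The ranges overlapped, with 15 of 18 model mice above every control, and model over control was 1.41 on the log2 scale (SE 0.305, adjusted p = 0.000272). Trac, the constant part of the receptor alpha chain, went from 0.372 ± 0.127 CPM in controls (SD, n = 6) to 1.12 ± 0.391 in model mice (SD, n = 18). Its log2 fold change was 1.57 (SE 0.282, adjusted p = 3.08e-05), and 16 of 18 model mice were above every control. Lck, the kinase that phosphorylates the CD3 chains at the start of receptor signalling, went from 0.688 ± 0.277 to 1.40 ± 0.483 CPM. Its log2 fold change was the smallest of the 3, 1.03 (SE 0.267, adjusted p = 0.00177), with 13 of 18 model mice above every control.

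The other receptor genes moved by similar amounts. Cd247, the zeta chain, was higher by 1.71 on the log2 scale (adjusted p = 3.49e-05) and was the only gene of the list with every model mouse above every control, a pattern held by 9.66% of all genes tested. Cd3d (1.36) and Cd3g (1.44), further CD3 chains, and the beta chain genes Trbc1 (1.59) and Trbc2 (1.08) were also called. Trbc1 and Trbc2 are near-identical, so their single values are uncertain. Under the clock index the call of Cd3g was lost (1.34, adjusted p = 0.0585). Trdc, the delta chain gene, did not pass the filter, with 9 control and 64 model counts.

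Set against receptor transcripts mouse by mouse, Themis moved to another range. Levels per kb of exon were used, since the genes differ in length. The ratio of Themis to Cd3e was 0.0269 to 0.419 in controls, with a median of 0.0975, and 6.23 to 33.6 in model mice, with a median of 10.5. The ratio to Trac went from a median of 0.0121 to 1.56, and that to Lck from 0.0233 to 3.84. In each of the 3 ratios every model mouse was above every control. This separation follows from the choice of Themis on this contrast, since the 3 genes changed far less, and is no further evidence. The control ratios rest on 1 to 6 Themis counts per mouse. The lowest model ratio was 14.9, 11.1 and 24.8 times the highest control ratio for Cd3e, Trac and Lck.

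Single mice show the same gap, which again follows from the choice of Themis and is no further evidence. Control 4 had the highest Cd3e of the controls, 0.461 CPM, and 1 Themis count. Model 9 had the lowest Cd3e of the model mice, 0.269 CPM and below 3 of the controls, and 25.9 CPM of Themis. Model 10 had 0.305 CPM of Cd3e and 6.72 CPM of Themis. Summed over the 8 receptor genes, levels were 1.64 to 3.59 CPM in controls and 2.50 to 10.1 CPM in model mice. In model mice Themis alone was 2.08 to 8.08 times that sum in CPM, which is not divided by exon length. Themis has 11.682 kb of exon, more than any of the 8 genes. Per kb of exon, the model mean was 2.02 CPM for Themis, 1.66 for Trbc2, 1.51 for Trbc1 and 1.20 for Trac. By mean level per kb, Themis was therefore below the sum of the receptor genes in model mice.

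**Figure D3:**
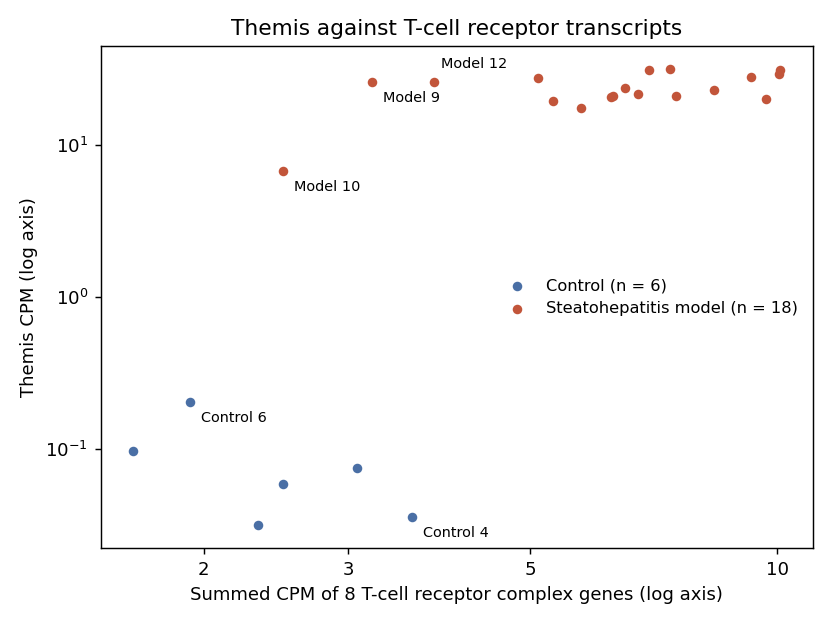
Each point is 1 mouse, with the summed CPM of 8 T-cell receptor complex genes on the horizontal log axis and Themis CPM on the vertical log axis, for 6 controls and 18 model mice. Control 4 and model 9 have receptor sums in a similar range but differ in Themis, at 0.035 and 25.9 CPM, and 17 of the 18 model mice form a flat band above 17 CPM. The gap in Themis between the groups follows from its choice on this contrast.

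Within the model group no relation of Themis to Cd3e, Trac or Lck passed its test. Over 18 mice and 10 relations, none passed after adjustment (two-sided permutation tests with 100000 resamples, Benjamini-Hochberg over the 10). With Cd3e, Pearson's r was 0.37 (permutation p = 0.134, adjusted 0.192) and Spearman's rho 0.15 (p = 0.539, adjusted 0.674). With Trac they were 0.37 (permutation p = 0.129, adjusted 0.192) and 0.12 (p = 0.631, adjusted 0.701), and with Lck 0.42 (permutation p = 0.0838, adjusted 0.168) and 0.16 (p = 0.514, adjusted 0.674). Leaving out models 9 and 10, the mice farthest from the median on all 3 genes, the 3 values of r were -0.03, -0.02 and -0.03, and without model 10 alone each was -0.08. An r near 0 over 16 mice does not show that no relation exists.

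Broader scores leaned on model 10. The score of the 7 tested receptor complex genes had r = 0.56 with Themis (permutation p = 0.0183, adjusted 0.0907) and rho = 0.43 (p = 0.0734, adjusted 0.245). The matrix score had r = 0.69 (permutation p = 0.0185, adjusted 0.0907) and rho = 0.21 (p = 0.392, adjusted 0.653), and the macrophage score r = 0.55 (permutation p = 0.0272, adjusted 0.0907) and rho = 0.24 (p = 0.343, adjusted 0.653). Without model 10 these 3 values of r were 0.17, 0.10 and 0.03. Without the 2 mice farthest from the median of each score (models 9 and 10, 2 and 10, and 10 and 12) they were 0.28, 0.32 and 0.08. Of the mice named, model 10 alone lowered these values. Leaving out model 9 alone gave 0.677 for the receptor score, model 2 alone 0.783 for matrix and model 12 alone 0.617 for macrophages. Without models 9 and 10 the rho of the receptor score was 0.40, close to its value over 18 mice.

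Hepatocyte genes pointed the other way without passing. The hepatocyte score had r = -0.45 (permutation p = 0.0516, adjusted 0.129) and rho = -0.47 (p = 0.0521, adjusted 0.245), and r = -0.41 without models 8 and 13. The B-cell score had r = 0.29 (permutation p = 0.208, adjusted 0.208) and rho = 0.05 (p = 0.851, adjusted 0.851), and r = 0.33 without models 9 and 17 but 0.08 without model 10 alone. Library total, a measure of depth, had r = 0.32 (permutation p = 0.198, adjusted 0.208) and rho = 0.39 (p = 0.111, adjusted 0.276), and r = 0.28 without models 12 and 18.

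**Figure D4:**
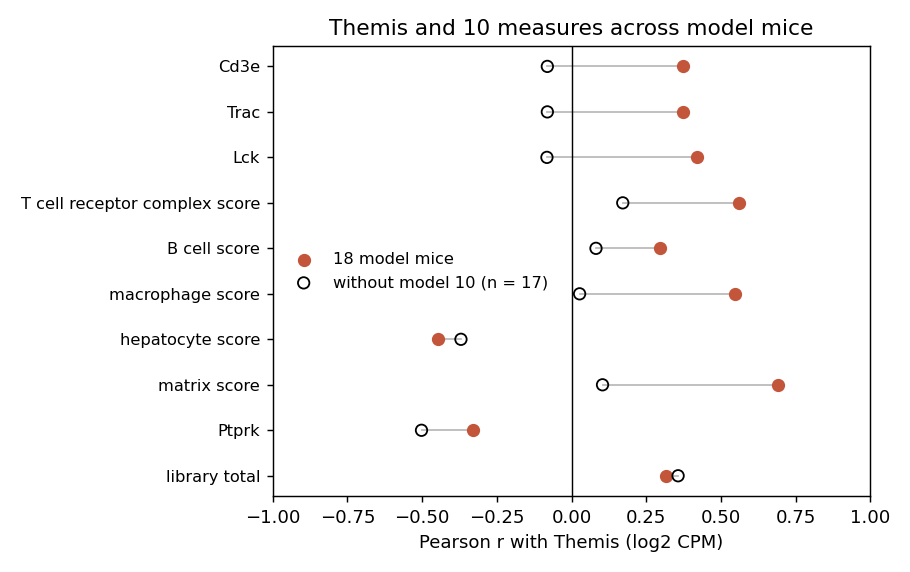
Points give Pearson's r between Themis and 10 measures on the log2 CPM scale (library total as log2 counts), filled for 18 model mice and open for 17 without model 10. The receptor complex, macrophage and matrix scores move from 0.56, 0.55 and 0.69 to 0.17, 0.03 and 0.10, while the hepatocyte score and Ptprk stay below 0.

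The 10 genes ranked closest to Themis among model mice held no receptor gene. Over 17455 other genes and 18 mice, the 10 highest Spearman values, given as a description, were those of Smim10l1 (0.87), Tceal8 (0.84), Cfdp1 (0.80), Apool (0.78), Hdac2 (0.77), Cnep1r1 (0.76), Xkr9 (0.76), Snrpe (0.75), Sh3bgrl (0.74) and Psmd10 (0.74). Lck stood at rank 5344, Cd3e at 5562 and Trac at 6254 in this order. Other T-cell genes stood higher, with Cd3d at rank 592 (rho 0.49, above 96.5% of genes), Cd8a at 861 (0.45) and Cd3g at 2732 (0.30). Without model 10 these 3 values of rho were 0.44, 0.35 and 0.17. All pairs share library depth and scaling.

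Hdac2 encodes a histone deacetylase, Snrpe a core protein of the spliceosome, Psmd10 a proteasome assembly chaperone, and Apool a protein of the inner mitochondrial membrane. Between groups, 4 of the 10 were called higher, near the 31.2% of all genes tested. Of these Tceal8 had the largest change, from 12.8 ± 1.16 CPM in controls to 39.0 ± 7.43 CPM in model mice, or 1.61 in log2 units (SE 0.137, adjusted p = 4.2e-10) with all 18 model mice above the controls. It had a Pearson r of 0.91 with Themis over 18 mice and 0.76 without model 10. Apool (0.36), Cnep1r1 (0.28) and Psmd10 (0.17) lost their calls with the clock index as a covariate (adjusted p = 0.654, 0.125 and 0.342). The calls of Cnep1r1 and Psmd10 were also lost with the replicate block (adjusted p = 0.112 and 0.0976), and that of Psmd10 without the filter and without control 4. In the replicate block models 7 to 18 have no control of their number. The group difference there, for these and all later genes, rests on controls and models 1 to 6 alone.

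At the other end stood Grcc10 (-0.85), Zswim1 (-0.82), Sdc1 (-0.81), Gm13509 (-0.79) and Noc2l (-0.77). Sdc1 encodes syndecan-1, a heparan sulfate proteoglycan of hepatocytes and plasma cells. Controls averaged 374 ± 59.9 CPM and model mice 236 ± 29.4 CPM (-0.66 in log2 units, SE 0.0865, adjusted p = 3.19e-07), with every model mouse below every control. The 5 genes were all called lower, beside 28.8% of genes tested. With library totals alone 4 of them lost the call, and the values of Gm13509 (0.02) and Noc2l (0.09) turned positive. Sdc1 was still called lower there (-0.33). Zswim1 and Noc2l also lost the call with the clock index, and Zswim1, Gm13509 and Noc2l with the replicate block (adjusted p = 0.111, 0.0749 and 0.119).

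Of the relatives of Themis, Themis2 also rose. Themis2 had 1.12 to 2.56 CPM in controls and 4.67 to 14.0 CPM in model mice, so the groups did not overlap. Its log2 fold change was 2.39 (SE 0.226, adjusted p = 2.39e-09). Among model mice its Spearman rho with Themis was 0.01. Themis3 was at the limit of detection, with 3 control and 7 model counts. Garem1, another gene with a CABIT domain, fell from a control mean of 28.2 ± 3.44 CPM to 17.3 ± 4.03 in model mice (-0.71 in log2 units, SE 0.141, adjusted p = 0.000116), with every model mouse below every control, as for 6.03% of genes tested. Garem2 had 5 control and 9 model counts and did not pass the filter.

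The genes for proteins that bind THEMIS or act with it were split much as all genes were. Of 8, 4 were called higher, 3 lower and 1 was not called, with a median log2 fold change of 0.29, beside 31.2% called higher and 28.8% lower over all genes tested. Vav1, an exchange factor gene of blood cells, was higher by 2.53 (SE 0.273, adjusted p = 1.87e-08). Lat, the scaffold of the receptor signal, was higher by 0.97 (SE 0.319, adjusted p = 0.0105), a call lost with the clock index (0.86, adjusted p = 0.233). Ptpn6, which encodes SHP-1, was higher by 0.55 (SE 0.0827, adjusted p = 2.62e-06).

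The widely expressed partners were level or lower. Grb2, the adaptor that THEMIS binds, was at 45.8 ± 5.29 CPM in controls and 46.6 ± 3.53 in model mice, 0.03 apart in log2 units (SE 0.0624, adjusted p = 0.724). Ptpn11, which encodes SHP-2, was lower by a log2 fold change of -0.44, Plcg1, a phospholipase gene, by -0.37 and Sos1, a RAS exchange factor gene, by -0.51 (largest adjusted p = 0.000507). Library totals alone shift the median of all genes tested to 0.34, and on that scale Grb2 was called higher (0.36) and Ptpn11 (-0.11) and Plcg1 (-0.04) were not called.

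**Figure D5:**
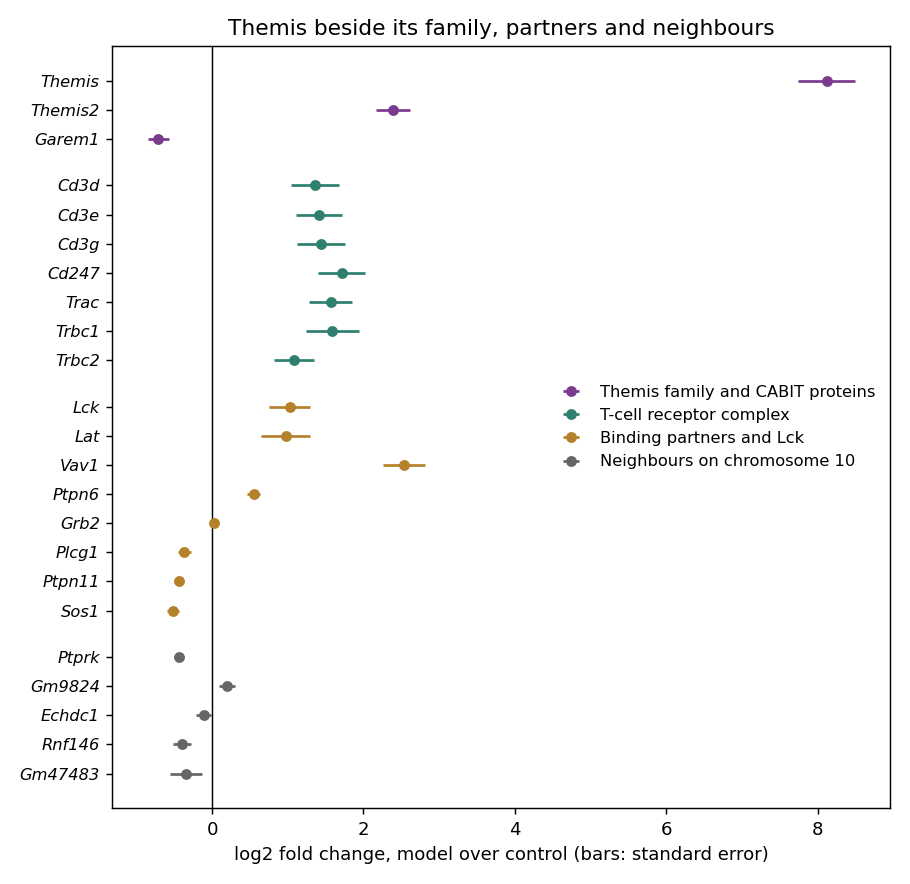
Points give log2 fold changes of model over control livers with standard errors, for Themis beside its relatives, the T-cell receptor complex, most binding partners with Lck, and neighbours on chromosome 10. Themis lies at 8.12, and the next highest gene drawn is Vav1 at 2.53.

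The wider receptor signalling list rose as well. Of 24 genes, 21 passed the filter, and 20 of these were called higher and 0 lower, with a median of 1.52, beside 31.2% higher over all genes tested. Besides Lck, Fyb (2.66) and Lcp2 (2.53), adaptors that myeloid cells use too, and Vav1 were among the genes with the largest changes. The gene not called was Txk (0.55, adjusted p = 0.113), a T-cell kinase gene. It was called with library totals alone (0.88), with the clock index (1.39) and without control 1 (0.85). With the clock index 15 of the list were called, and Zap70, the kinase that docks on the CD3 chains, lost its call (0.30, adjusted p = 0.436), as it did with the replicate block (0.37, adjusted p = 0.0611). Per kb of exon, Themis had a mean level of 2.02 ± 0.521 CPM in model mice (SD, n = 18). Of the 51 genes of the receptor, signalling and subset lists, Zap70 (3.35) and Vav1 (2.08) alone had a higher mean per kb there. In controls 47 of the 51 were above Themis. This shift in rank follows from the choice of Themis on this contrast and is no further evidence. Zap70 already stood at 6.76 ± 1.37 CPM in controls, beside 0.688 for Lck. Which cells the levels of Zap70 and Vav1 come from was not tested.

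T-cell subset genes were higher from low counts. Of 19, 14 passed the filter and 12 of these were called higher, beside the same 31.2%. Cd8a, a coreceptor gene of cytotoxic T cells, had 0.198 ± 0.0557 CPM in controls and 1.38 ± 0.754 in model mice (2.77 in log2 units, SE 0.481, adjusted p = 2.11e-05), and Cd8b1, its partner chain, had a log2 fold change of 3.97. Cd4, the other coreceptor gene, rose less (0.76, SE 0.281, adjusted p = 0.0214). It lost its call with the replicate block, with the clock index and without control 5 or 6. The 2 genes not called were Tcf7 (0.05) and Gzma (0.34). Pdcd1, the PD-1 gene, had 1 count in all controls together and 219 in all model mice together. Scaled by library totals this is a ratio of 69.3, with an exact interval for counting error of 12.3 to 2748. Of thymocyte genes, Rag1 had 0 counts in all 24 libraries, Rag2 had 0 and 2, and Ptcra 1 and 4, so these were at or near 0. Dntt, also on that list, was present in both groups, at 1.30 ± 0.419 CPM in controls and 1.19 ± 0.287 in model mice. Of the 2 thymocyte list genes tested, Dntt was not called (-0.13) and Cd1d1, also a hepatocyte gene, was lower (-0.42), a call lost with library totals alone (-0.09).

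Markers of most other cell types were higher in model livers, as Themis was, while hepatocyte markers were mostly lower. The part of these cell types in the Themis level was not tested. Counts for these lists stand beside 31.2% of all genes called higher and 28.8% called lower, and the cholangiocyte count is near that share. Macrophage genes were called higher in 8 of 8 (median log2 fold change 4.11, led by Gpnmb at 8.81 and Trem2 at 5.62), and their summed level was 18.9 to 44.4 CPM in controls and 119 to 737 in model mice. Calls were 4 of 5 higher for NK cells (Klrd1 2.57, Nkg7 1.52), 6 of 6 for B cells (Cd22 2.62, Ighm 2.53), 5 of 5 for neutrophils (Mmp8 2.68, Csf3r 2.68) and 4 of 5 for dendritic cells (Siglech 1.99, Cd209a 1.98). Calls were 5 of 6 higher for endothelial cells (Cdh5 1.61, Stab2 1.46), 6 of 6 for stellate cells (Hgf 1.64, Pdgfrb 1.59), 6 of 6 for matrix (Timp1 5.84, Col1a1 3.85) and 2 of 6 for cholangiocytes (Spp1 1.96, Cftr 1.87), the last 2 genes losing their calls with the clock index and Cftr also without control 1, 3, 5 or 6. Summed levels in controls and model mice ran from 0.943 to 2.20 and 1.75 to 6.33 CPM for NK cells, and from 3.57 to 6.53 and 12.4 to 61.0 CPM for B cells. They ran from 0.629 to 5.59 and 3.89 to 15.5 CPM for neutrophils, and from 3.28 to 5.35 and 4.94 to 7.16 CPM for dendritic cells. For matrix genes they ran from 13.7 to 40.2 and 45.0 to 303 CPM. Day-peak clock genes were called higher in 4 of 6 (Dbp 2.68, Nr1d1 2.13) and night-peak clock genes lower in 3 of 4 (Arntl -2.53, Cry1 -2.27). Hepatocyte genes were called lower in 7 of 10 (Tat -2.02, Cps1 -1.13), with a summed level of 142635 to 208579 CPM in controls and 74085.5 to 135547 in model mice. Albumin, the defining hepatocyte product, is part of that sum, so the tissue matches its label.

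No tested neighbour of Themis on the chromosome was called higher with TMM scaling. Within 500 kb on either side lie 26 other genes of the table, and 5 of them passed the expression filter. Ptprk, which encodes a receptor-type tyrosine phosphatase, ends 70.962 kb before Themis on the same strand. It was at 68.5 to 89.9 CPM in controls and 50.4 to 66.1 CPM in model mice, so every model mouse was below every control. Its log2 fold change was -0.44 (SE 0.0656, adjusted p = 2.41e-06), and with library totals alone it was -0.11 (adjusted p = 0.135). Among model mice its r with Themis was -0.33 (permutation p = 0.192, adjusted 0.208) and its rho -0.44 (p = 0.0673, adjusted 0.245), and r was -0.34 without models 3 and 16. Without model 10 alone r was -0.50 (permutation p = 0.0413, adjusted 0.413).

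Beyond the 3′ end, Gm9824 (0.20), Echdc1 (-0.11), a metabolic repair enzyme gene, and Gm47483 (-0.34) were not called, and Rnf146 (-0.39), a ubiquitin ligase gene, was lower (adjusted p = 0.00626). Rnf146 was not called under library totals alone (-0.06) or under the clock index (-0.22). Under library totals alone Gm9824 was called higher (0.52) and Echdc1 turned positive (0.22). Of the 26 genes, 2 overlap the span of Themis and 1 overlaps its exons. The latter, ENSMUSG00000121770 on the minus strand (chr10:28755207-28798451, GRCm39), had 0 counts in controls and 71 in model mice, in 17 of 18 libraries. Against 3 counts over the control group this is at least 7.49-fold higher by library totals. The labels and file headers leave out the strand setting of the counting, so reads of this gene and of the last Themis exon cannot be told apart. Its 71 counts are few beside the 18717 of Themis.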

How the data were processed

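Per the labels' protocols, poly(A) RNA of whole liver was pulled down by oligo(dT) probes, made into double-stranded cDNA and amplified as DNA nanoballs. The authors deposited raw read counts per Ensembl gene, with exon positions and, in another unit (bases), summed exon length. Per the submitters' processing notes the build was GRCm39. For the aligner, counting program, annotation release and strandedness, the answer is: not given in the sources used here. Symbols came from a GENCODE M21 name table (51498 of 78298 IDs matched). Totals were 31.6 M to 58.4 M counts. No pair of libraries within a group was alike within sampling noise (168 pairs, smallest chi-square per degree of freedom 17.0).

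Counts were fitted with edgeR 4.0.16 in R 4.3.3 (TMM factors, default expression filter, robust quasi-likelihood F test, all 24 libraries, group alone), with Benjamini-Hochberg adjustment over 17456 genes and calls below 0.05. On simulated data the fit missed part of the larger seeded changes, more than the bar first set for it allowed, and most of the smaller ones, so genes not called may still differ. CPM uses TMM-scaled totals, and log2 CPM a prior count of 2. Correlations used Python 3.11.15 and scipy 1.17.1. Alternatives were RLE factors, library totals alone, DESeq2 1.42.0, no filter, a replicate block, a clock index, a prior count of 0.5 and each library left out. Named genes are Themis, its family, the receptor complex, binding partners, Lck and the 4 signalling genes with the largest called changes, the 2 largest called changes of each other list, filtered neighbours within 500 kb, and the 10 highest and 5 lowest Spearman values. Some genes that this rule names are not reported here. Other names (Cd8a, Cd4, Tcf7, Gzma, Alb, Txk, Zap70, Trdc, Rag1, Rag2, Ptcra, Dntt, Ntrk2, Cyp2a22, Mmp12, Cidea, Cyp2b9) were chosen after their values were seen. The gene and the lists were chosen with earlier results of these data known.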

Additional observations from a re-analysis of the deposited data

How the results depend on the processing

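The Themis log2 fold change lay between 7.95 and 8.54 with each library left out in turn and between 8.11 and 8.45 with RLE factors, library totals alone, DESeq2 or no filter. It was 7.17 with the clock index as a covariate, where index and group can hardly be told apart, and the cause was not tested. All genes called numbered 10480, with 52.0% higher, and 6917 with the clock index. With library totals alone 85.8% of calls were higher. The receptor complex count was 7 in every alternative except the clock index (6), and the signalling count ran from 15 to 21. Receptor complex, macrophage and matrix scores passed with library totals alone, at r = 0.62, 0.625 and 0.744 (adjusted permutation p = 0.026 each), and the cause was not tested. No other relation passed under an alternative. The replicate numbers 1 to 6 do not pair the mice: same-numbered deviations correlated between -0.293 and 0.0674, and 1 of 6 controls correlated best with its own number. With the replicate block Themis was at 8.18 and 7805 genes were called. That fit takes the group difference from the mice numbered 1 to 6 alone, since no control has a higher number. Depth limits the control level of Themis, which rests on 16 counts.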
